A study of Mus musculus with 11 samples.

Results

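The histone marks around 6 genes of the Notch pathway were taken from 8 ChIP-seq peak lists of mouse muscle satellite cells (SCs). The genes were the receptors Notch1 and Notch3 and the repressors Hey1, Hey2, Heyl and Hes1, which act downstream of the receptors. Each gene had a fixed window in the coordinates of the mouse build mm9 (NCBI37), and every peak that shared at least 1 bp with a window was a member, whatever its width or score. The windows were chr2:26305000-26370000 for Notch1, chr17:32248000-32315000 for Notch3, chr3:8655000-8676000 for Hey1, chr10:30540000-30575000 for Hey2, chr4:122902000-122937000 for Heyl and chr16:30055000-30077000 for Hes1. They spanned 245006 bp in all and held 118 of the 212879 peaks in the 8 lists.

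Quiescent SCs (QSCs) were sorted as VCAM+ / CD31- / CD45- / Sca1- cells from hindlimb muscles of male C57BL/6 mice, at 2 to 3 months of age for the young group and at 22 to 24 months for the old group. Activated SCs (ASCs) came from young mice of the same strain and sex. By the sample descriptions they were sorted QSCs that had been kept for 3 days on a matrix-coated surface in F10 medium with horse serum, whereas the paper speaks of SCs isolated from injured muscle, so which of these gave the ASC libraries is not settled here. No transgene or deletion is named for any group. Crosslinked cells were collected frozen until there were enough for an immunoprecipitation, so a library can hold cells of several sorts. H3K4me3 and H3K27me3 were profiled in young QSCs, young ASCs and old QSCs, and H3K36me3 in young QSCs and young ASCs. H3K36me3 of old QSCs was not analysed here. Each cell state and mark had 1 library, and its sequencing depth is unknown. Every difference given below is therefore between single libraries, carries no replicate error and was not tested. The peak lists hold no expression values, so the identity of the sorted cells was not checked against marker genes.

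Notch receptors are cut when a ligand on a neighbouring cell binds them, and the freed intracellular domain enters the nucleus, where it joins the DNA-binding protein RBPJ and Mastermind coactivators. The Hey and Hes genes are the best known targets of this complex and encode basic helix-loop-helix repressors, and Notch signalling is required to keep SCs quiescent. H3K4me3 marks promoters that are active or poised, H3K27me3 is laid down by the Polycomb machinery and accompanies silent genes, and H3K36me3 is deposited over the bodies of transcribed genes.

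The promoters are shown first, because the RBPJ letters were found at Hey2 and not at the receptors. Hey2 was the only repressor gene with a promoter at hand, so this is no contrast between repressor and receptor genes. RefSeq promoters on GRCm38.p6 were at hand for Hey2, Notch1 and Notch3, and none was at hand for Hey1, Heyl and Hes1. The 250 bases before each start are printed 5′ to 3′ on the strand of the gene, and capitals mark the letters of the RBPJ motif GTGGGAA on either strand. All 3 genes lie on the minus strand, at chr10:30842784-30843033 for Hey2, chr2:26503823-26504072 for Notch1 and chr17:32166891-32167140 for Notch3. These are GRCm38.p6 positions and cannot be read against the mm9 positions of the peaks.
Hey2: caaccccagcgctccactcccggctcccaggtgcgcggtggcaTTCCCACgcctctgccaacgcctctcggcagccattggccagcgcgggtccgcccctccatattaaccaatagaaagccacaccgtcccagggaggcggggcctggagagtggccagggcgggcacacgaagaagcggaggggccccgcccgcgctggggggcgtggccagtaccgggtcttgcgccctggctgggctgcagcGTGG
Notch1: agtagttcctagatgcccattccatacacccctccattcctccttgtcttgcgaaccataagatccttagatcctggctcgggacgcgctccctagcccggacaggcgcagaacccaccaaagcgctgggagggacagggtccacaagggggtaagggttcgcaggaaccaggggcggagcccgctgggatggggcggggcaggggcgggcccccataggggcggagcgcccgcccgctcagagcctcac
Notch3: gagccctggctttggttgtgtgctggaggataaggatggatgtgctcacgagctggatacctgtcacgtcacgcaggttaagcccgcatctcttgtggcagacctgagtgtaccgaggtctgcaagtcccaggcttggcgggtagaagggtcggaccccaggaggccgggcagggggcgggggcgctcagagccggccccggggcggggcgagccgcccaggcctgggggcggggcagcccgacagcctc

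In Hey2 the letters GTGGGAA occurred 2 times, once on the opposite strand from -207 to -201 and once on the gene's strand from -4 to 3 relative to the start, so that only the first 4 letters of the latter are in the printed bases. Of 32851 promoters of the same extent, 250 bases before and 50 after the start, 6.38% held the letters at least once and 0.256% held them at least 2 times. Neither Notch1 nor Notch3 held them, nor the shorter form TGGGAA, which is part of GTGGGAA and was found in 25.6% of all promoters. A match of letters is a description of the sequence and not a site of binding. The 3 promoters also lay above the median in CpG content. In the order Hey2, Notch1 and Notch3, 87.1%, 78.5% and 81.6% of all promoters had fewer CpG dinucleotides. A lower observed over expected ratio was found in 74.6%, 68.1% and 71.4%, so many other promoters had as much. Hey2 had 29 CpG dinucleotides, Notch1 had 23 and Notch3 had 25, against a median of 7 over all promoters, and the observed over expected CpG ratio was 0.746, 0.66 and 0.706 against a median of 0.384. None of them held TATAAA on the gene's strand. Among 22 other genes of the pathway, 21 had a promoter in the table and 3 of these held GTGGGAA. They were the targets Hes5 and Hes7, out of 4 targets, and Lfng, a glycosyltransferase that modifies Notch receptors, out of 6 modulators. The letters were in 0 of 5 ligand genes, 0 of the 2 other receptor genes and 0 of 4 genes for the nuclear partners. The shorter form TGGGAA was in 6 of the 21 promoters, the 3 above and those of Rbpj, Maml2 and Maml3, which encode nuclear partners.

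The deposited score of a peak follows the scale of the peak caller MACS, 10 times the negative logarithm of a p-value, so that the lowest score of 50 stands for a p-value of 1e-05. Most of the highest scores are tied at 3100, and the share of H3K4me3 peaks at this value was 13.0% in young QSCs, 31.2% in ASCs and 22.1% in old QSCs, so a score or its rank describes a peak within its own list, and neither is read as a change between lists. The 3 H3K4me3 lists held 24453 to 32846 peaks, the H3K27me3 lists 11658 to 38307 and the H3K36me3 lists 20399 and 42880. The lists of all 3 marks were longer in ASCs, but the windows had less H3K4me3 and H3K36me3. Relative to young QSCs, the ASC list of H3K4me3 covered 1.32-fold the length over the genome and 0.708-fold the length in the windows. For H3K36me3 these ratios were 2.41-fold and 0.891-fold, and for H3K27me3 2.29-fold and 1.3-fold, the last resting on 2 window peaks in either library. Its direction turned under some settings, with 1.7 kb in ASCs against 1.97 kb in young QSCs in lists of equal length, and 2.56 kb against 3.93 kb in windows lengthened by 5 kb. In old QSCs the H3K4me3 ratios were 1.05-fold over the genome and 0.843-fold in the windows. For H3K27me3 of old QSCs they were 0.789-fold and 0.537-fold, although that list held 1.51-fold the peaks. The window value again rests on 2 peaks in either library.

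**Figure D1:**
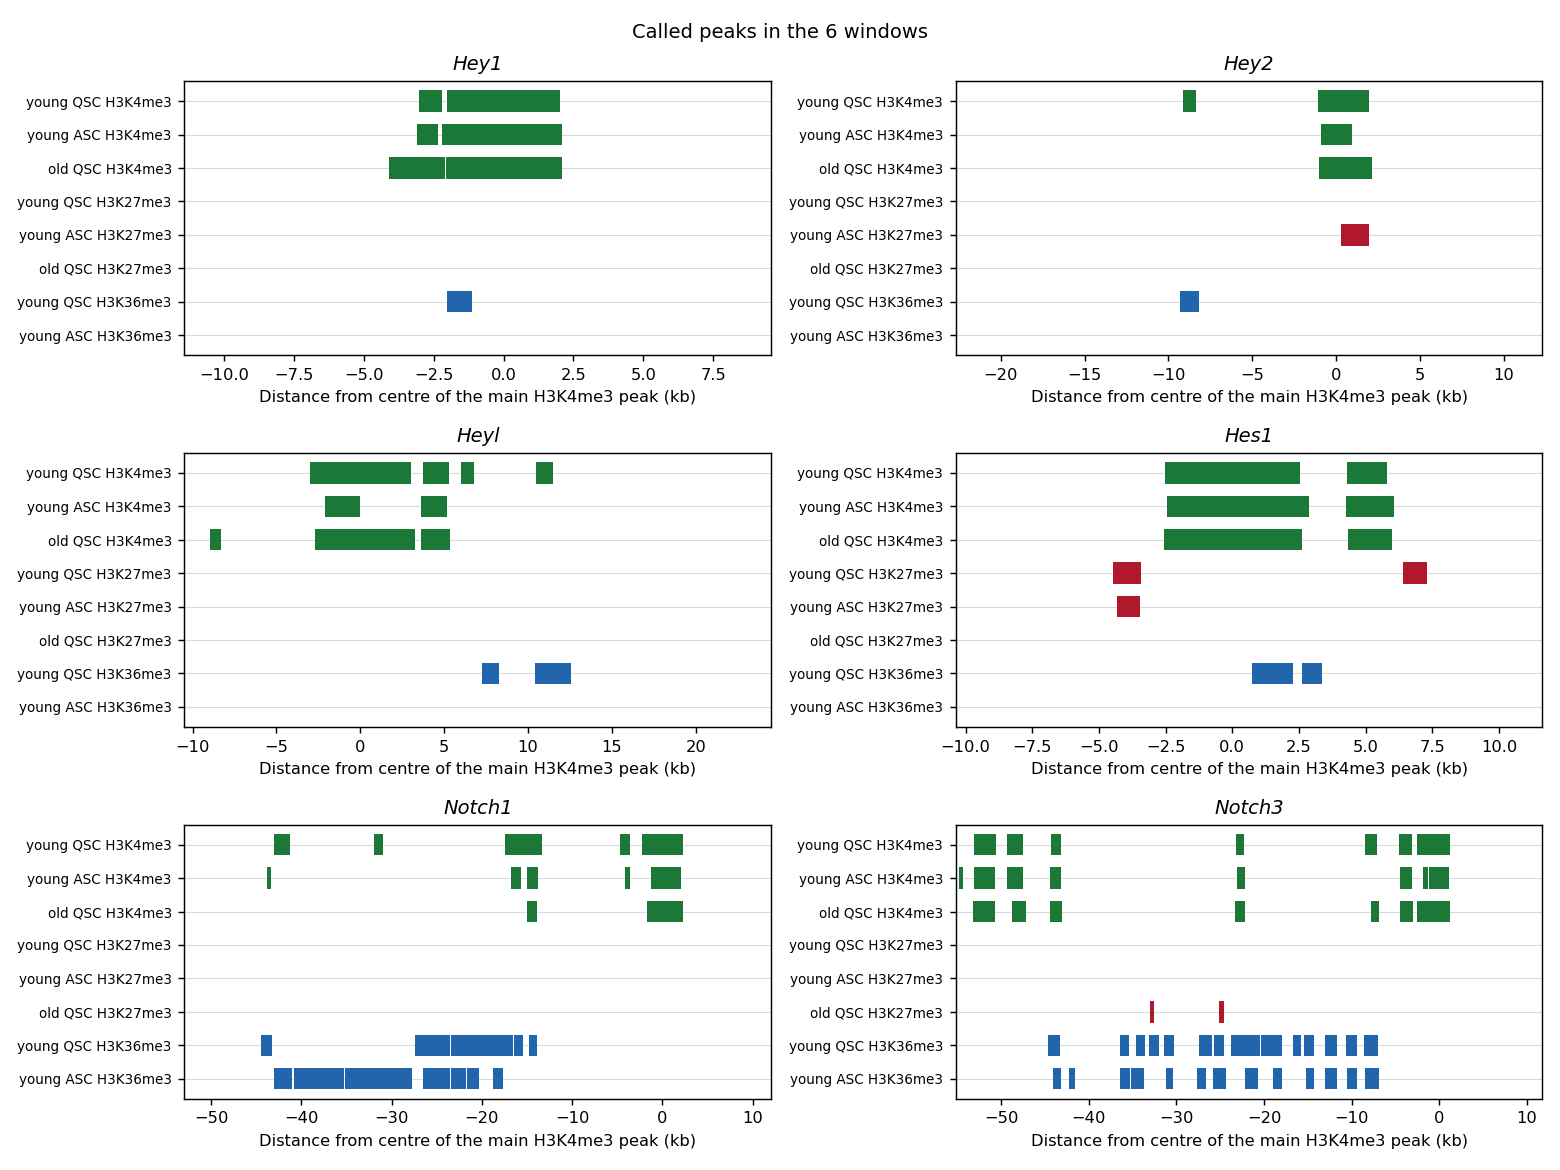
Called peaks in the windows of the 6 genes, 1 panel per gene and 1 row per library, against the distance in kb from the centre of the main H3K4me3 peak of young QSCs (green H3K4me3, red H3K27me3, blue H3K36me3). A main H3K4me3 peak is present in all 3 cell states in each panel, whereas H3K36me3 of ASCs is drawn for Notch1 and Notch3 alone.

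Both receptor genes carried a strong H3K4me3 peak near the high-coordinate end of their windows in every cell state, no H3K27me3 in either young library, and long runs of H3K36me3. For each window the H3K4me3 peak with the highest score in young QSCs, and the peak over it in the other libraries, is called the main peak. This choice was made after the values were seen. It is also the widest peak of the window, except for Notch3 in all 3 libraries.

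At Notch1, which encodes a receptor found on many stem cells, the main H3K4me3 peak lay at chr2:26355664-26360233 and was 4570 bp wide in young QSCs, 3325 bp in ASCs and 3998 bp in old QSCs. Its score was 3100 in all 3 lists, and 99.2%, 93.6% and 98.3% of the peaks in the respective list were narrower. It was thus among the widest peaks of each list and widest in young QSCs. The whole window had 12.4 kb under 6 H3K4me3 peaks in young QSCs, 6.55 kb under 5 peaks in ASCs and 5.16 kb under 2 peaks in old QSCs. Most of this difference lay away from the main peak, on its low-coordinate side, where the gene body extends because the gene is on the minus strand. A pair of adjoining peaks 11.1 and 13.2 kb from the main peak was 2067 and 1924 bp wide in young QSCs and 1201 and 1036 bp wide in ASCs. In old QSCs the first was 1162 bp wide, 1.78-fold narrower than in young QSCs, and no peak was called over the second. The scores of this pair in young QSCs were 332.49 and 282.58, well under that of the main peak. The peaks of young QSCs at 28.7 and 38.9 kb, with scores of 81.43 and 67.07, had no H3K4me3 peak over them in either other library, and both lay under H3K36me3 peaks of ASCs. H3K4me3 over Notch1 was thus longest in young QSCs, and most of the part that differed lay away from the main peak. Leaving out the weaker peaks made the difference smaller but did not remove it. Among peaks with a score of at least 100, the log2 ratio of covered length to young QSCs was -0.62 in ASCs, against -0.93 for all peaks. In old QSCs it was -0.73, against -1.27. The same score need not mean the same signal in lists of unknown depth, so the share due to weak peaks is not known.

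H3K36me3 at Notch1 went the other way. It covered 13.8 kb under 6 peaks in young QSCs and 22.2 kb under 9 peaks in ASCs, a ratio of 1.61. The libraries shared 7.23 kb, while 6.62 kb was covered in young QSCs alone and 15.0 kb in ASCs alone. The ASC-only part lay toward the far end of the gene. A peak of 7480 bp at chr2:26322775-26330254 had the highest score of the window, 1467.74, above 99.4% of the ASC list, and no H3K36me3 peak of young QSCs overlapped it. In young QSCs the highest score was 756.47, at chr2:26330567-26334444, and a peak of 3039 bp with a score of 729.87 lay over it in ASCs. In young QSCs 5 of the 6 peaks lay between 11.6 and 21.2 kb from the main H3K4me3 peak and the remaining one at 41.0 kb, whereas the ASC peaks reached from 15.3 to 38.7 kb. The annotated length of the gene is 45.9 kb on GRCm38. The stretch from 25.4 kb outward, where young QSCs had the peak at 41.0 kb alone, was thus largely covered in ASCs. The gene overlaps the long non-coding RNA 0610009E02Rik and the microRNA Mir6996, whose own marks cannot be told apart here.

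Notch3 encodes a receptor that is prominent in SCs and in vascular smooth muscle. Its main H3K4me3 peak at chr17:32301984-32304432 was 2449 bp wide in young QSCs, 2302 bp in ASCs and 2481 bp in old QSCs, with scores of 2144.19, 3100 and 3005.14. The widths of this peak as called were nearly the same, and it ranked above 74.8%, 68.4% and 75.8% of the respective list. This sameness depends on how the peaks were split. With peaks less than 1 kb apart merged, the peak here was 5780 bp wide in young QSCs, 2981 bp in ASCs and 5723 bp in old QSCs. The merged peak of both QSC libraries took in a peak 1.83 kb away in young QSCs, which was 1504, 1339 and 1451 bp wide and stayed separate in ASCs. The whole window had 13.2 kb under 8 H3K4me3 peaks in young QSCs, 11.3 kb under 9 in ASCs and 12.6 kb under 8 in old QSCs. Next to the main peak, 36 bp away, young QSCs had a peak of 1306 bp with a score of 336.18, which was 1282 bp wide in old QSCs and 488 bp wide, with a score of 53.32, in ASCs. An inner peak at chr17:32258859-32260069 was 1211 bp wide in young QSCs, 1331 bp in ASCs and 1328 bp in old QSCs, with scores of 164.36, 1709.35 and 124.24. A further inner peak was 963, 924 and 1053 bp wide, with scores of 137.81, 650.83 and 190.14. Both inner peaks were thus called at similar widths in all 3 libraries. The wide peak of 2507 bp at 49.4 kb from the main peak, present in all 3 libraries, lies farther away than the 46.1 kb that the gene spans on GRCm38 and was not assigned to the gene.

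H3K36me3 at Notch3 covered 20.5 kb under 14 peaks in young QSCs and 15.1 kb under 13 peaks in ASCs, a ratio of 0.735. The libraries shared 13.1 kb, with 7.43 kb in young QSCs alone and 1.99 kb in ASCs alone. Of the length covered in young QSCs, 63.8% was also covered in ASCs, against 52.2% at Notch1. The highest score was 425.28 in young QSCs and 354.41 in ASCs, above 96.1% and 88.7% of the respective list. A peak of 3359 bp in young QSCs, with a score of 340.07, was met in ASCs by a peak of 1570 bp with a score of 50.62, at the limit of calling. When only peaks with a score of at least 100 were kept, the log2 ratio of covered length changed from -0.44 to -1.49. Notch3 overlaps the long non-coding RNAs Gm38585 and Gm41568, whose own marks cannot be told apart here.

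**Figure D2:**
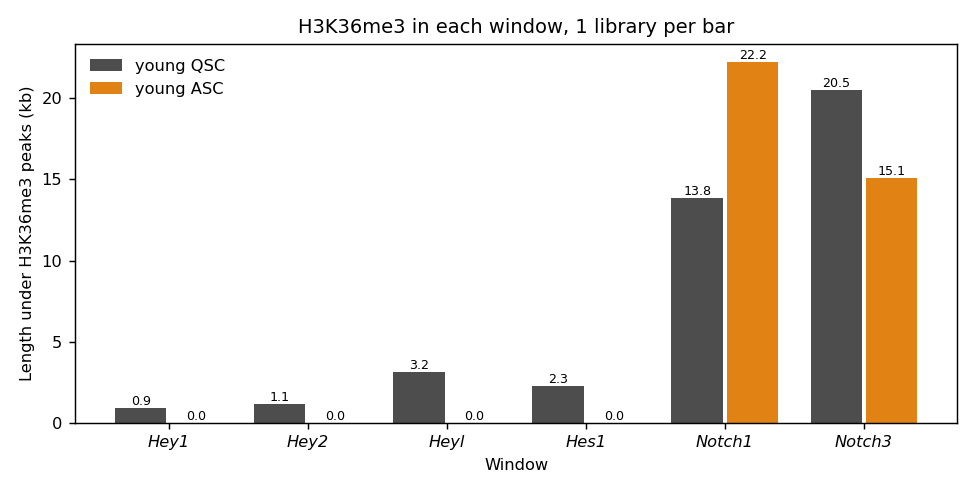
Length in kb under H3K36me3 peaks in each window, in 1 library of young QSCs (grey) and 1 of young ASCs (orange). Hey1, Hey2, Heyl and Hes1 have 0.926 to 3.16 kb in young QSCs and no called peak in ASCs, Notch1 goes from 13.8 to 22.2 kb, and Notch3 goes from 20.5 to 15.1 kb.

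Among the 4 repressor genes, H3K4me3 was almost the same in all 3 cell states over the main peaks of Hey1 and Hes1 and was shorter in ASCs at Hey2 and Heyl, while H3K36me3 was called at all 4 in young QSCs and at none in ASCs. The genes are described in turn.

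Hes1 encodes the repressor whose oscillating expression is a classic readout of Notch signalling. The main H3K4me3 peak at chr16:30062838-30067908 was 5071 bp wide in young QSCs, 5335 bp in ASCs and 5174 bp in old QSCs. The gene itself is 2.44 kb long on GRCm38, so this peak was wider than the gene. The score was 3100 in each list, and 99.5%, 98.9% and 99.5% of the peaks were narrower. A second peak 1.75 kb away was 1517, 1779 and 1664 bp wide, with scores of 916.6, 1120.02 and 1920.07. Of the H3K4me3 of young QSCs, 98.8% of the covered bases were also covered in ASCs and 99.3% in old QSCs. H3K27me3 flanked this H3K4me3 without touching it. In young QSCs a peak of 1045 bp with a score of 137.42 lay 878 bp below the main peak, and a peak of 923 bp with a score of 76.77 lay 582 bp above the second peak. In ASCs only the lower flank was called, with 859 bp, a score of 108.87 and a gap of 996 bp, and in old QSCs neither flank was called. H3K36me3 was called in young QSCs over 2286 bp in 2 peaks, one of 1548 bp with a score of 188.65 that lay within the main H3K4me3 peak and one of 738 bp with a score of 60.76.

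Hey1 encodes a repressor that, together with Heyl, is needed to maintain SCs in quiescence. The main H3K4me3 peak at chr3:8664391-8668449 was 4059 bp wide in young QSCs, 4300 bp in ASCs and 4166 bp in old QSCs, with a score of 3100 in each list. Beside it, a small peak was 817 bp wide with a score of 79.68 in young QSCs, 758 bp with 123.17 in ASCs and 2000 bp with 219.14 in old QSCs. This flanking peak was 2.45-fold wider in old than in young QSCs, and 99.6% of the sites called once in each of these libraries had a lower ratio. The covered length in the window was 4.88, 5.06 and 6.17 kb in the same order, so the old library had the longest H3K4me3. No H3K27me3 peak was called in any cell state. H3K36me3 was a single weak peak of 926 bp in young QSCs, with a score of 81.89, which overlapped the main H3K4me3 peak. Hey1 overlaps the annotated protein-coding gene LOC115489673, whose own marks cannot be told apart here.

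Hey2 encodes a related repressor that is best known from the heart and vessels. It was the only one of the 6 genes at which a main H3K4me3 peak met H3K27me3, in ASCs and by the limit of at least 1 bp. With a minimum overlap of 50% of the shorter peak, 0 of the windows had both marks in ASCs. The main H3K4me3 peak at chr10:30561641-30563735 was 2095 bp wide in young QSCs, 1841 bp in ASCs and 3166 bp in old QSCs, with a score of 3100 in each list. In young QSCs a separate peak of 863 bp with a score of 151.89 followed after 33 bp, and the single peak of old QSCs spanned both. ASCs had no H3K4me3 peak over the smaller one. In its place ASCs had an H3K27me3 peak of 1703 bp at chr10:30562977-30564679, with a score of 215.88, above 77.4% of that list. It overlapped the ASC H3K4me3 peak by 681 bp, 37.0% of the H3K4me3 peak, and it covered the place of the H3K4me3 that was called in young and old QSCs. Neither QSC library had an H3K27me3 peak in the window. The covered length of H3K4me3 was 3.72 kb in young QSCs, 1.84 kb in ASCs and 3.17 kb in old QSCs. The mark that was called in young QSCs and not in ASCs also included a weak H3K4me3 peak of 762 bp with a score of 134.2, 7.33 kb from the main peak, and the H3K36me3 peak of 1136 bp with a score of 209.81 around it. This H3K36me3 peak was above 86.4% of its list. Whether both marks sat on one nucleosome cannot be read from separate libraries. Hey2 overlaps the long non-coding RNA Gm51763, whose own marks cannot be told apart here.

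Heyl encodes another member of the Hey family and is a direct Notch target in SCs. Relative to young QSCs, it had the lowest H3K4me3 length in ASCs among the 6 genes, with a ratio of 0.387 in its window against 0.495 to 1.08 at the others. The main peak at chr4:122909473-122915510 was 6038 bp wide in young QSCs, 2071 bp in ASCs and 5972 bp in old QSCs. The peak was wider than 99.8% and 99.7% of the peaks in the young and old QSC lists, and wider than 77.2% in the ASC list. Its score was 2499.33 in young QSCs, 1474.37 in ASCs and 2538.66 in old QSCs, above 79.4%, 62.2% and 71.1% of the peaks in each list. The width was thus nearly the same in QSCs of both ages and smaller in ASCs. The ASC peak was 2.92-fold narrower and lay within the low-coordinate part of the young QSC peak. A second peak 705 bp away did not share this difference, at 1583, 1550 and 1754 bp, with scores of 444.81, 675.83 and 1349.5. Young QSCs alone had further weak H3K4me3 peaks of 776 bp, with a score of 61.93, and 967 bp, with a score of 119.27. Old QSCs alone had one of 658 bp with a score of 56.59. H3K36me3 of young QSCs comprised a peak of 1002 bp with a score of 61.47 and one of 2157 bp at chr4:122922919-122925075 with a score of 377.59, above 94.9% of its list. No H3K36me3 peak was called in ASCs, and no H3K27me3 peak in any cell state.

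**Figure D3:**
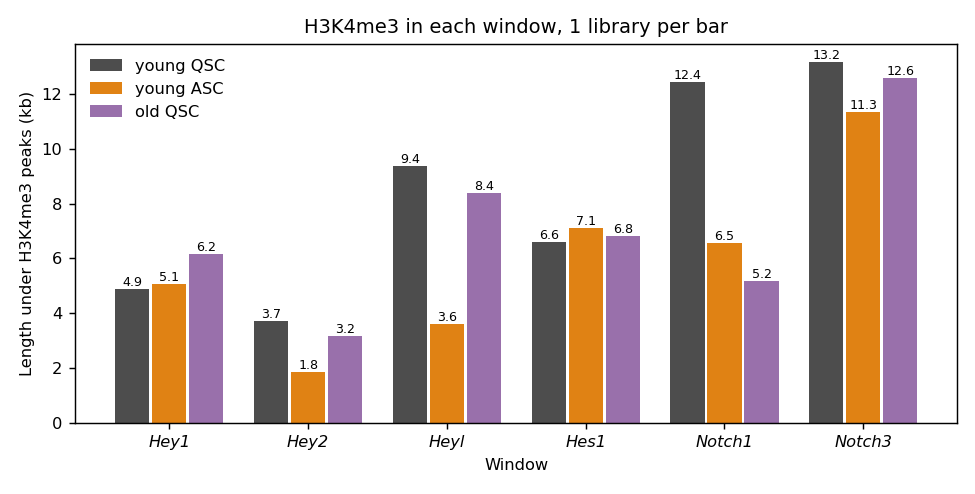
Length in kb under H3K4me3 peaks in each window, in 1 library each of young QSCs (grey), young ASCs (orange) and old QSCs (purple). Hes1 stays between 6.59 and 7.11 kb, Heyl goes from 9.36 kb in young QSCs to 3.62 kb in ASCs with 8.38 kb in old QSCs, and Notch1 goes from 12.4 kb to 6.55 and 5.16 kb.

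Across the 6 genes, 18 of the 25 H3K4me3 peaks of young QSCs overlapped an H3K4me3 peak of ASCs, where 78.6% of the whole list did, and 18 overlapped one of old QSCs, where 80.5% did. These shares are close to the background, and the members that went unmatched differed between both comparisons. At Notch1, 4 of 6 peaks had a counterpart in ASCs and 2 of 6 in old QSCs, while at Hey2 it was 1 of 3 and 2 of 3. Every main peak had a counterpart in both. The comparisons with ASCs and with old QSCs share the young QSC library, so they are not independent of each other.

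Peak width was compared at sites where 1 peak of young QSCs met exactly 1 peak of the other library. Of 16 such member sites, 13 were narrower in ASCs, with a median ratio of 0.915. Over all 17567 sites 38.3% were narrower and the median ratio was 1.08. Among the 16 member sites, 7 lay in the Notch3 window and 4 in the Notch1 window. Sites of one window and one pair of libraries are not independent, so the counts are a description only. At least 1.5-fold narrower in ASCs were 5 of the 16, against 6.69% of all sites. These were the main peak of Heyl, 3 inner peaks of Notch1 and the peak next to the main peak of Notch3. Among sites wider than 3 kb in young QSCs, 5.09% were narrower by as much, and of the 3 member sites in that class (Heyl, Hes1 and Notch1) only Heyl was. The ratio at Heyl was 0.343, and 0.342% of all sites and 0.97% of the wide sites had a lower one. At the main peaks of Hey2, Hes1, Notch1 and Notch3 the ratio was 0.879, 1.05, 0.728 and 0.94. These ratios depend on how peaks were split. With peaks less than 1 kb apart merged, young QSCs and ASCs had 2991 and 1841 bp at Hey2 and 5780 and 2981 bp at Notch3. Heyl then had 9803 and 2071 bp, and the widths at Hes1 and Notch1 were unchanged. The main peak of Hey1 has no such ratio, since the ASC peak also touched the flanking peak of young QSCs.

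In old QSCs, 7 of 16 member sites were narrower than in young QSCs, with a median ratio of 1.01. Over all 18717 sites 33.8% were narrower and the median was 1.05. Of these member sites, 8 lay in the Notch3 window, so they are not independent either. At least 1.5-fold narrower were 2 of 16, 1 inner peak each of Notch1 and Notch3, with a background of 2.05%. At least 1.5-fold wider was 1 of 16, the flanking peak of Hey1, with a background of 4.17%. The main peaks of Hey1, Heyl, Hes1 and Notch3 had ratios of 1.03, 0.989, 1.02 and 1.01, and Notch1 had 0.875. The main peaks of the targets thus had nearly the same width at both ages, apart from Hey2, where 1 old peak joined a pair of young ones.

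**Figure D4:**
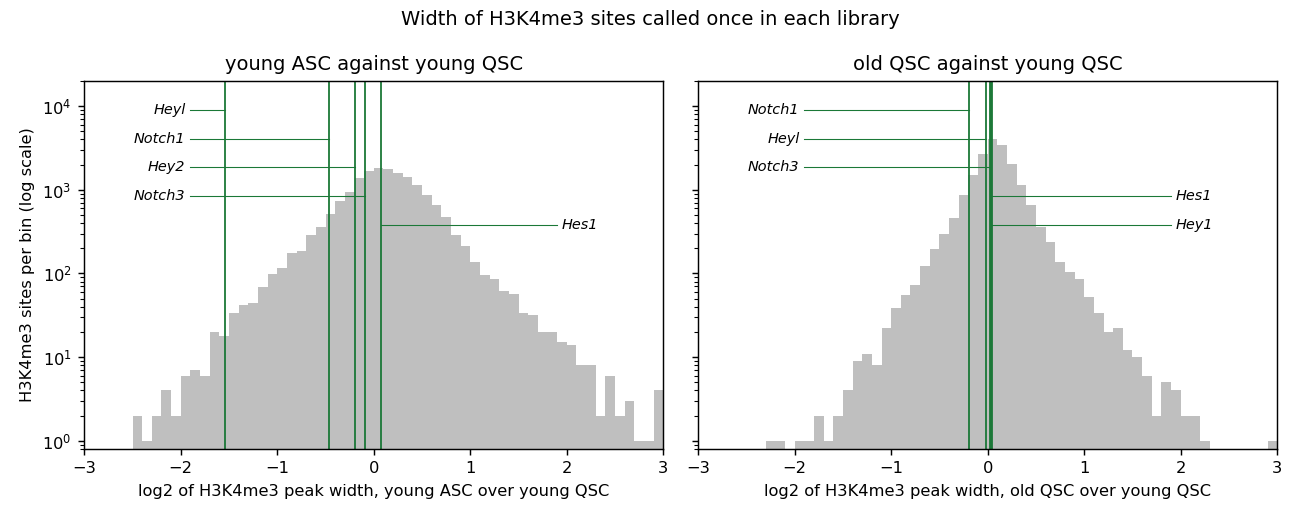
Number of H3K4me3 sites (log axis) by the log2 ratio of peak width in young ASCs (left) or old QSCs (right) over young QSCs, for all sites called once in each library (grey), with green lines at the main peaks of the named genes. Heyl stands at -1.54 on the left, against a median of 0.11 over all sites, and at -0.02 on the right.

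H3K27me3 rarely met the H3K4me3 of these genes. In young QSCs 0 of 25 H3K4me3 peaks overlapped H3K27me3 of the same cells (14.0% of the list), in ASCs 1 of 21, at Hey2 (16.9%), and in old QSCs 0 of 18 (28.6%). Of the 25 young QSC peaks, all without H3K27me3, 2 overlapped H3K27me3 in ASCs, both at Hey2, where 15.0% of such peaks over the genome did. In old QSCs 0 of the 25 overlapped it, where 11.0% did. With so few members, nothing particular to these genes is read from the counts. Of the 2 H3K27me3 peaks of young QSCs, both at Hes1, 1 overlapped an ASC peak, where 74.3% of the list did.

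The only H3K27me3 of old QSCs was a pair of narrow peaks in the Notch3 window, of 471 bp with a score of 55.31 and of 585 bp with a score of 56.85. They ranked above 10.9% and 13.8% of their list and lay 9273 and 1339 bp from the nearest H3K4me3 peak of old QSCs. Both scores were close to the limit of calling, and both peaks lay within H3K36me3 peaks of young QSCs. Of the 2, 0 overlapped H3K27me3 of ASCs, where 56.4% of the old list did.

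H3K36me3 differed between the repressor and the receptor genes, a grouping made after the values were seen. The same grouping divides the genes by length, from 2.44 to 16.3 kb for the repressor genes and 45.9 and 46.1 kb for the receptor genes on GRCm38, so role and gene length cannot be told apart. The 4 Hey and Hes genes had 6 peaks and 7.51 kb in young QSCs and 0 peaks in ASCs, whereas the 2 receptor genes had 20 peaks and 34.4 kb in young QSCs and 22 peaks and 37.3 kb in ASCs. The receptor total joins opposite directions, since Notch1 went from 13.8 to 22.2 kb and Notch3 from 20.5 to 15.1 kb. Notch3 thus had less in ASCs, as the Hey and Hes genes did, but kept called peaks. Of all young QSC H3K36me3 peaks 59.2% overlapped one of ASCs, and of the 26 member peaks 14 did, with 0 of 6 at the Hey and Hes genes, 2 of 6 at Notch1 and 12 of 14 at Notch3. The members' count as a whole was near the background, and Notch1 was below it. Among peaks with a score of at least 100 the background was 75.3%, and 12 of 16 member peaks overlapped, with 0 of 3 at Hey2, Heyl and Hes1, 2 of 2 at Notch1 and 10 of 11 at Notch3. In the other direction, 26.3% of the ASC list overlapped H3K36me3 of young QSCs, and 16 of the 22 member peaks did, 4 of 9 at Notch1 and 12 of 13 at Notch3. Over the genome, the ASC list of this mark held 2.1-fold the peaks of the young QSC list.

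H3K36me3 also overlapped H3K4me3 at these genes in young QSCs. There 9 of 25 H3K4me3 peaks overlapped H3K36me3 of the same cells, against 12.9% of the list, and each of the 6 genes had at least 1. Of the 9, 2 lay in the Notch1 window and 3 in the Notch3 window. Peaks of one window are not independent, so the count is a description only. At Hey1 and Hes1 it was the main peak, with 917 and 1548 bp in common, and at the other genes it was 1 or more peaks away from the main peak. In ASCs 1 of 21 H3K4me3 peaks, at Notch3, overlapped H3K36me3, against 7.70% of that list.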

How the data were processed

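Peak lists of 8 ChIP-seq libraries (H3K4me3, H3K27me3 and H3K36me3 in young QSCs and young ASCs, H3K4me3 and H3K27me3 in old QSCs) were used. Samples were grouped by their titles. The 3 input libraries were not analysed on their own. Per the submitters' processing notes, Bowtie and the build mm9 were used, and the peak names are those of MACS. Versions, read numbers and the input behind each list are not given in the sources used here. The authors deposited for each peak a start, an end and a score on the MACS scale, with no replicate and no count of reads, so depth is unknown and no interval or test was computed. Scores and their ranks describe a peak within its own list.

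The 6 genes, their windows and the lists of other pathway genes were chosen with earlier results of these data known. The rule for naming was that the 6 genes are given with all their values and other pathway genes only as counts by promoter sequence. As a departure from this rule, the other pathway genes whose promoters held the letters are also named. Peaks were assigned to a window and called overlapping when they shared at least 1 bp, and covered length counts bases inside the window only. The main peak was planned as the widest of a window and is given as the highest-scoring. The RefSeq gene table is on GRCm38, so transcription starts, exons and introns were not placed on the mm9 peaks, and no coordinate was converted. Gene lengths, strands, neighbours and promoters come from RefSeq. Python 3.11.15 was used, with pandas 2.3.3 and numpy 2.4.6 for overlaps and matplotlib 3.10.9 for figures. The code, tested on simulated data, found 600 of 600 planted overlaps among 2000 peaks and 0 false ones, and was checked against bedtools 2.31.1. Alternatives were a score of at least 100, lists of a mark shortened to equal length by score, merging of peaks less than 1 kb apart, a minimum overlap of 50% of the shorter peak, and windows shortened by 2 kb or lengthened by 5 kb at both ends.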

Additional observations from a re-analysis of the deposited data

How the results depend on the processing

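Of the summary values for the 6 windows, 92 stayed within 1.5 times the reported value under the alternatives and 18 did not. A value reported as 0 counted as staying when it remained 0. These were the windows with both marks in young and in old QSCs, and the H3K4me3 sites that gained H3K27me3 in old QSCs. Most alternatives can only remove overlaps from them, so they add little to the tally. With scores of at least 100, H3K27me3 of old QSCs had 0 peaks and 0 kb, H3K27me3 of young QSCs had 1 peak and 1.04 kb, and H3K36me3 had 16 peaks in young QSCs and 13 in ASCs, so the old H3K27me3 at Notch3 and the upper flank of Hes1 rest on weak peaks. With the lists of a mark shortened to equal length by score, H3K27me3 had 0 peaks and 0 kb in old QSCs and 1 peak and 1.7 kb in ASCs, and H3K36me3 had 11 peaks in ASCs. With peaks less than 1 kb apart merged, H3K36me3 had 13 peaks in young QSCs and 12 in ASCs, and 1 H3K4me3 site gained H3K27me3 in ASCs. With a minimum overlap of 50% of the shorter peak, 1 H3K4me3 site gained H3K27me3 in ASCs and 0 windows had both marks there, against 1 as reported, so the meeting of marks at the main Hey2 peak depends on that limit. With windows lengthened by 5 kb, H3K27me3 of young QSCs had 4 peaks and 3.93 kb. A log2 ratio for a single gene was counted as staying when the ratio of lengths changed by at most 1.5-fold. Under this limit the H3K4me3 log2 ratio of old over young QSCs at Notch1 stayed, although it went from -1.27 to -0.73 with scores of at least 100. The 18 widths of the widest H3K4me3 peak stayed under every setting but merging, so they add little to the tally. Of the values for single genes, 155 stayed and 5 moved. These were the log2 ratio of H3K36me3 at Notch3, -0.44 as reported, which was -2.06 in lists of equal length and -1.49 in peaks scoring at least 100, and the widest H3K4me3 peak after merging, 9803 bp at Heyl in young QSCs, and 5780 and 5723 bp at Notch3 in young and old QSCs. In ASCs the widest Notch3 peak was 2981 bp after merging and counted as staying, so merging parted the ASC width from both QSC widths. The sign of every log2 ratio for a single gene held, but the H3K27me3 length in the windows, longer in ASCs (2.56 kb) than in young QSCs (1.97 kb) as reported, was shorter in ASCs in lists of equal length (1.7 against 1.97 kb) and in windows lengthened by 5 kb (2.56 against 3.93 kb). No paired analysis was possible because each cell state and mark has 1 library and no test was made. With unknown depth and no replicate, a place without a called peak may still carry the mark, and differences between libraries in depth, immunoprecipitation or input cannot be told apart from those between cell states.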

Other observations

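The combination of marks over the other 7 lists was read at the main H3K4me3 peak of each gene, among 110 combinations that occur over the 24701 H3K4me3 peaks of young QSCs. Hey1 and Hes1 had the same combination, H3K4me3 in ASCs and old QSCs and H3K36me3 in young QSCs without any in ASCs, which 378 peaks or 1.53% of the list showed. Hey2 had H3K4me3 in ASCs and old QSCs with H3K27me3 in ASCs only, as did 1017 peaks or 4.12%. Heyl, Notch1 and Notch3 had H3K4me3 in all 3 cell states and no other mark at the main peak, the most frequent combination, with 11737 peaks or 47.5%. The difference in width at Heyl is not seen in such a reading of presence and absence.

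Within 5 kb outside the windows, further H3K27me3 was called beyond both ends of the Hes1 window in young QSCs, at 1365 bp with a score of 99.02 on the low side and at 599 bp with a score of 50.09 on the high side. No such peak was called there in ASCs or old QSCs. Old QSCs had an H3K27me3 peak of 526 bp with a score of 58.72 beyond the low end of the Hey2 window. Beyond the low end of the Notch1 window all 3 cell states had H3K4me3 with a score of 3100, which was 1 peak of 2702 bp in young QSCs, 1 of 3337 bp in old QSCs and a pair of 1540 and 1945 bp in ASCs. The RefSeq table places Sec16a as the neighbour of Notch1 on that side.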
